A study of Homo sapiens with 12 samples.

Results

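The exons described here are frame-shifting cassette exons of 51 to 250 nt. A cassette exon is a middle exon that is either spliced in between its neighbours or skipped, and it shifts the reading frame when its length is not a multiple of 3. Members were the events whose middle exon met both conditions, with at least 1 flanking intron over 500 nt, among the events listed in all 12 libraries. The rule used lengths and positions and no inclusion level, but an event is listed in all 12 libraries only where each had reads for it. It gave 1742 of the 4992 events listed in all 12 libraries, and 872 of these had at least 10 isoform-specific reads in every library and were tested for inclusion. Of the 872, 820 lay on primary chromosomes, in 700 annotated genes. The frame-preserving cassette exons of the same length range, 2098 listed and 1146 tested, served for comparison.

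The cells were MCF10A, an established, non-tumorigenic human breast epithelial line. They stably carried an empty vector, wild-type TIP60 that the siRNA cannot target, or a catalytically dead TIP60 with the same resistance. TIP60, encoded by KAT5, is a lysine acetyltransferase that modifies histones and other proteins, p53 among them. Each line was transfected with a control siRNA or with one against TIP60 and collected 72 h later, which makes 6 groups of 2 libraries. The labels do not say which promoter drove the constructs, whether a line was a clone, or whether libraries of a group came from separate cultures, so the p-values measure the spread between these libraries, which may be technical.

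Skipping a frame-shifting exon inside a coding sequence changes every codon after the junction. The new frame soon meets a stop codon in many cases. A stop well upstream of the last exon junction can send a transcript to nonsense-mediated decay, whereas a stop near or after that junction leaves a transcript with another C-terminus. Frame-shifting exons can therefore alter the amount of a protein as well as its end.

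The exons below carry the inclusion results of the next paragraphs and lie wholly inside annotated coding sequence. Each is shown in capitals with 20 bases of the neighbouring exons of its GENCODE transcript in lower case, on the strand of the transcript. Positions are on GRCh38, and the exons are 197, 86, 95 and 143 nt long. TP53I3 is a quinone oxidoreductase induced by p53 and its exon lies at chr2:24079444-24079640 on the minus strand. GUK1 is the guanylate kinase that turns GMP into GDP and its exon lies at chr1:228148371-228148456 on the plus strand. MGST1 is a glutathione transferase of microsomal membranes with its exon at chr12:16357605-16357699, plus strand. TDG is a thymine DNA glycosylase of base excision repair with its exon at chr12:103976918-103977060, plus strand.
TP53I3 exon: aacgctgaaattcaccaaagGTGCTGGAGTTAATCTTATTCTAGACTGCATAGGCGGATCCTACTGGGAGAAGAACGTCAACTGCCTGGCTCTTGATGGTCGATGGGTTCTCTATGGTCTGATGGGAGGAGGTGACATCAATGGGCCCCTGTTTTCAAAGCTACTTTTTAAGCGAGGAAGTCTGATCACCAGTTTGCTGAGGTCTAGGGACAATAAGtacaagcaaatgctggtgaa
GUK1 exon: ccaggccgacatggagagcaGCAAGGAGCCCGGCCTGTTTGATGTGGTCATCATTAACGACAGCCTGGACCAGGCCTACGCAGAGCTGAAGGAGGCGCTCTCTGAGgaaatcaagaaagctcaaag
MGST1 exon: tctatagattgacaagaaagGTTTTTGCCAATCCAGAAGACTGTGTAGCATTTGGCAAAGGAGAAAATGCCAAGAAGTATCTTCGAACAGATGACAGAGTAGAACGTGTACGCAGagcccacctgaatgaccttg
TDG exon: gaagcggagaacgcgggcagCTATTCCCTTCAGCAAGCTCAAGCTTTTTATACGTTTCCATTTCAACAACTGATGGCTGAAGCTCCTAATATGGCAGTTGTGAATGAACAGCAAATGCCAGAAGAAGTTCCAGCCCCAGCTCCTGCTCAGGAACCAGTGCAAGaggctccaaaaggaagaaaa

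Without the exon the upstream frame runs on into the downstream exon. The next sequences show this for MGST1, MPI, CDIPT and TDG, joined without the exon and read to the first stop codon in the upstream frame, which is in capitals. The first 20 bases belong to the upstream exon. MPI is mannose-6-phosphate isomerase, with an exon of 209 nt at chr15:74897011-74897219 on the plus strand. CDIPT is phosphatidylinositol synthase, with an exon of 82 nt at chr16:29859442-29859523 on the minus strand.
MGST1 skipped: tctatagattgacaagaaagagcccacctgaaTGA
MPI skipped: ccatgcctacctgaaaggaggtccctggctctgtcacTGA
CDIPT skipped: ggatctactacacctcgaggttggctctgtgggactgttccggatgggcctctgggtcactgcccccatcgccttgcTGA
TDG skipped: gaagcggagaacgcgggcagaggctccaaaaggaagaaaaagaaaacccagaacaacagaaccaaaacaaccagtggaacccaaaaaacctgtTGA
The stop begins 12 nt after the junction in MGST1, 17 nt in MPI, 57 nt in CDIPT and 73 nt in TDG. In MGST1, MPI and CDIPT the skipped exon is the next-to-last one, so the stop lies in the last exon. In TDG it lies more than 50 nt upstream of the last junction, the position called an early stop here.

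Members on primary chromosomes were placed on annotated transcripts with a complete coding sequence, as a description of the 820 tested there. The exon lay inside a coding sequence in 507, and in 187 of these (36.9%) its removal gave an early stop in at least a share of 0.5 of the transcripts. The same removal gave an early stop in 2 of 898 frame-preserving exons. Insertion of the exon into a coding transcript that lacks it gave an early stop in 113 of 504 members (22.4%) and in 31 of 950 frame-preserving exons. The exon was next to last in the transcript for 360 of 798 members with an annotated coding transcript (45.1%), against 247 of 1068 frame-preserving exons (23.1%). This position was looked at after the inclusion results had been seen. Members and frame-preserving exons had median lengths of 125 and 123 nt and median GC contents of 49.7% and 50%.

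The inclusion level is the estimated share, from 0 to 1, of transcripts of an event with the exon spliced in. Its mean over the 12 libraries had a median of 0.858 over the 820 members and lay at 0.9 or above in 333 (40.6%) and at 0.1 or below in 151 (18.4%). The frame-preserving exons had a median of 0.868, with 432 of 1078 at 0.9 or above (40.1%) and 133 at 0.1 or below (12.3%). Levels differed by annotated class. In 111 members the skipped junction lay inside a complete coding sequence, but the exon lay wholly inside none. These had a median of 0.0767. Some of them hold the stop codon of the included form, as in DAD1, CSNK1D and ITGA6. The 114 with the exon wholly inside a complete coding sequence and no such skipped junction had a median of 0.914, and the 393 with both had 0.908. The other members in untranslated sequence or at a start or stop codon, 187 in number, spread widely around a median of 0.631. No test was made between these classes, since genes can hold several members.

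**Figure D1:**
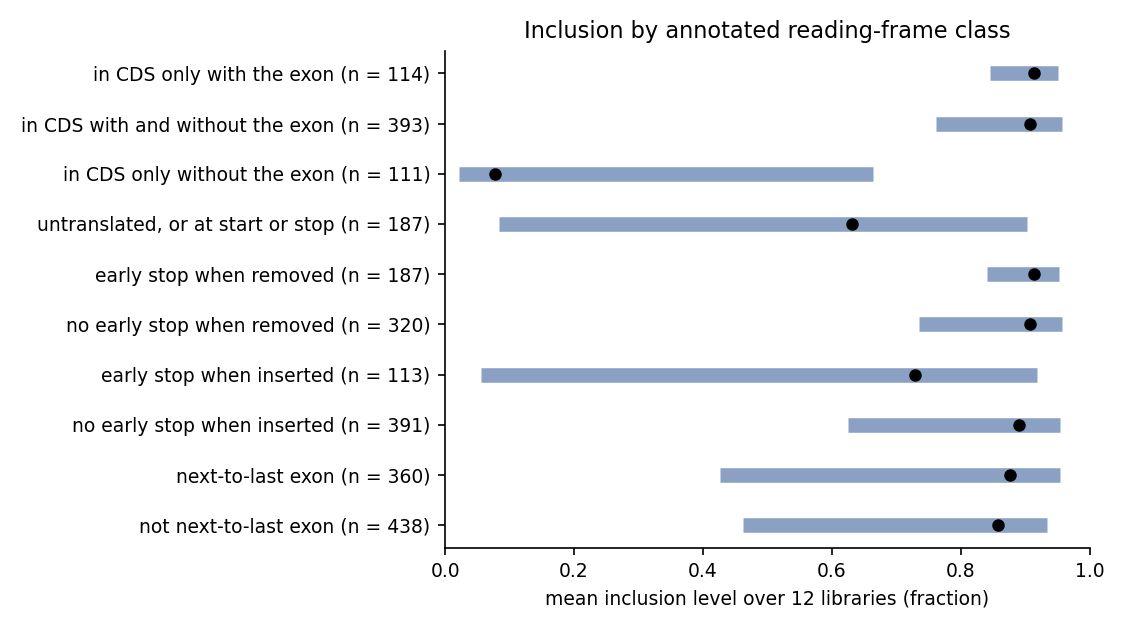
Mean inclusion level over 12 libraries (x axis, fraction) of the tested members on primary chromosomes, by annotated class (y axis, with the number of exons); points are medians and bars run from the lower to the upper quartile, and an exon can stand in more than 1 class. The class labelled in CDS only without the exon takes in some exons that hold the stop codon of the included form, and has its median at 0.0767. The classes with an early stop on removal and without one have medians of 0.914 and 0.908.

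The libraries numbered 1 held 1983221 to 2280488 reads fitting an isoform of an event, and those numbered 2 held 1277953 to 1566296. The share of reads with no fit to either isoform was 50.1 to 53.2% in the former and 64.5 to 65.7% in the latter, so the numbers mark 2 sets of libraries that stand apart, each holding all 6 groups. The KAT5 event, an exon of 156 nt and no member, was a check of the siRNA: reads with its exon ran from 5.31 to 17.2 RPM (reads per 1000000 reads fitting an isoform of any event in the library) under control siRNA and from 0 to 3.95 under TIP60 siRNA, lower in 6 of 6 pairs of line and number. These levels rest on few reads: 37, 8, 23, 8, 25 and 10 with the exon under control siRNA. Under TIP60 siRNA there were 5, 2, 6, 2, 9 and 0 (empty vector, wild type, catalytically dead, number 1 before 2 in each). Reads of the KAT5 form without this exon were at 0 to 8.38 RPM in empty-vector cells. In the line with wild-type TIP60 they were at 1654 to 2291 RPM in the libraries numbered 1 and at 76.8 to 93 in those numbered 2, and in the catalytically dead line at 885 to 988 and 28.2 to 35.1. The comparisons between constructs average over these sets, and the part of this difference in them was not tested. Of 16 epithelial marker genes, 6 had a listed event, with summed levels of 2758 to 4534 under control siRNA and 2851 to 5071 under TIP60 siRNA. Of 10 mesenchymal or fibroblast markers, FN1 alone was listed, at 21.3 to 816 and 34.1 to 2469. None of 4 endothelial or 7 immune markers had an event listed in all 12 libraries. The part of these levels in the results below was not tested.

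The first question was which members changed with TIP60 siRNA when the 3 lines were averaged, 6 libraries against 6. Of 872 tested members, 13 passed an adjusted p of 0.05 in limma (1.49%), against 2.12% of all 2695 tested events. Inclusion was lower in 12 of the 13 and higher in 1, where 1.89% and 0.223% of all tested events were called in these directions. Smaller shifts also leaned down: 542 members were lower and 326 higher, with a median difference of -0.005, against -0.0067 over all tested events. The share called was thus no higher than among all events. Among the frame-preserving exons 28 of 1146 were called, 27 of them lower. The difference in call rate between the classes was not tested.

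With the replicate number as a block, which removes the distance between the numbered sets, 27 members were called, 24 lower and 3 higher, against 4.16% of all tested events. All 13 were among the 27. The calls rest on all 12 libraries: with 1 library left out and no block, the number called was 13 without the first empty-vector TIP60 siRNA library, 8 of them among the 13 above, and 0 to 4 without any 1 of the other 11. With the block it was 6 to 34, lowest without the first control library of the catalytically dead line, and every one of the 13 kept its sign. TP53I3 and DAD1 were called in 12 of the 12 blocked fits that left out 1 library, UTP23 in 8, GUK1, TDG and TSPAN4 in 5, and RNH1 in 1. MGST1 and MPI were called in 4 of them, POMT1 in 3, and CDIPT, CSNK1D and MYNN in 2. Without the block GUK1 and TSPAN4 were called in 3 of 12 such fits, the most of any, and CDIPT in 0. A further fit, without the block, took the ratio of isoform-specific reads in place of the inclusion level. In it 3 of the 13 stayed called, and TP53I3 and DAD1 were not among them.

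The exon of TP53I3 was at 0.96 and 0.95 in empty-vector cells under control siRNA and at 0.87 and 0.75 under TIP60 siRNA. In cells with wild-type TIP60 it was at 0.95 and 0.92 against 0.85 and 0.79. In cells with the catalytically dead form it was at 0.97 and 0.96 against 0.77 and 0.73. All 6 TIP60 siRNA libraries lay below all 6 control libraries. The averaged difference was -0.158 ± 0.0223 (SE; limma adjusted p = 0.0322, and 0.00741 with the block). The GUK1 exon, also next to last, was at 0.93 to 0.97 (median 0.96) under control siRNA and at 0.76 to 0.87 (median 0.835) under TIP60 siRNA, with no overlap. It fell by 0.137 ± 0.0169 (limma adjusted p = 0.0226, and 0.0167 with the block). A longer GUK1 exon of 169 nt with the same start (chr1:228148371-228148539) was a separate tested member, at a mean level of 0.161. That exon differed by -0.0717 ± 0.0364 (limma adjusted p = 0.523, block 0.0622).

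MPI supplies mannose phosphate for glycosylation, and its exon was at 0.83 to 0.96 (median 0.885) under control siRNA and at 0.74 to 0.78 (median 0.76) under TIP60 siRNA. The groups did not overlap, and the difference was -0.133 ± 0.022 (limma adjusted p = 0.0366, block 0.0189). POMT1, a protein O-mannosyltransferase, had the largest difference among the called members, -0.353 ± 0.0583 (limma adjusted p = 0.0366, block 0.0308). Its exon of 152 nt, at chr9:131504189-131504340 and holding an annotated start or stop codon, was at 0.63 to 0.91 (median 0.755) and at 0.17 to 0.69 (median 0.405). These ranges overlap, and POMT1 rests on 12 to 45 isoform-specific reads a library. Of all tested members it alone had every TIP60 siRNA library at least 0.1 below both control libraries of its line in all 3 lines, as 0.519% of all tested events had.

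DAD1, a subunit of the oligosaccharyltransferase of the endoplasmic reticulum, moved little in size and with little spread. Its exon of 175 nt (chr14:22575059-22575233, holding the stop codon) was at 0.98 in each control library and at 0.95 to 0.97 under TIP60 siRNA, a difference of -0.02 ± 0.00283 on 827 to 2006 reads (limma adjusted p = 0.0322, block 0.0137). The MGST1 exon was at 0.96 to 0.97 and at 0.93 to 0.95, a difference of -0.0233 ± 0.00343 on 1502 to 4507 reads (limma adjusted p = 0.0345, block 0.0228). CDIPT was at 0.97 to 0.99 and at 0.93 to 0.97, so that the groups met at 0.97, and differed by -0.035 ± 0.00568 (limma adjusted p = 0.0366, block 0.0273). Values are deposited to 2 decimals, which is coarse beside differences of this size.

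The TDG exon was at 0.84 to 0.92 (median 0.895) under control siRNA and at 0.72 to 0.82 (median 0.8) under TIP60 siRNA, without overlap. TDG differed by -0.0917 ± 0.0154 (limma adjusted p = 0.0366, block 0.0184), and it was the only one of the 6 called exons inside a complete coding sequence whose removal gave an early stop. UTP23, a factor of small ribosomal subunit assembly, was at 0.92 to 0.97 and at 0.67 to 0.89, a difference of -0.18 ± 0.0332 (limma adjusted p = 0.0468, block 0.016). RNH1, the cytosolic ribonuclease inhibitor, had its untranslated exon of 173 nt (chr11:504824-504996) at 0.24 to 0.29 and at 0.14 to 0.22, a difference of -0.0767 ± 0.014 (limma adjusted p = 0.0457, block 0.0456).

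CSNK1D, casein kinase 1 delta, was at 0.91 to 0.94 and at 0.81 to 0.9 for an exon of 64 nt that holds the stop codon (chr17:82245976-82246039). It fell by 0.0633 ± 0.0113 (limma adjusted p = 0.0449, block 0.0358). TSPAN4, a tetraspanin of the cell membrane, was at 0.89 to 0.99 and at 0.69 to 0.88 for an exon of 80 nt at a start or stop codon (chr11:850288-850367), a difference of -0.178 ± 0.0254 (limma adjusted p = 0.033, block 0.0228). The single rise was in MYNN, a zinc finger protein. Its untranslated exon of 67 nt (chr3:169774031-169774097) was at 0.45 to 0.64 (median 0.515) and at 0.61 to 0.75 (median 0.7), overlapping, on 15 to 38 reads. The MYNN difference was 0.16 ± 0.0267 (limma adjusted p = 0.0366, block 0.0307), higher in 6 of 6 pairs.

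**Figure D2:**
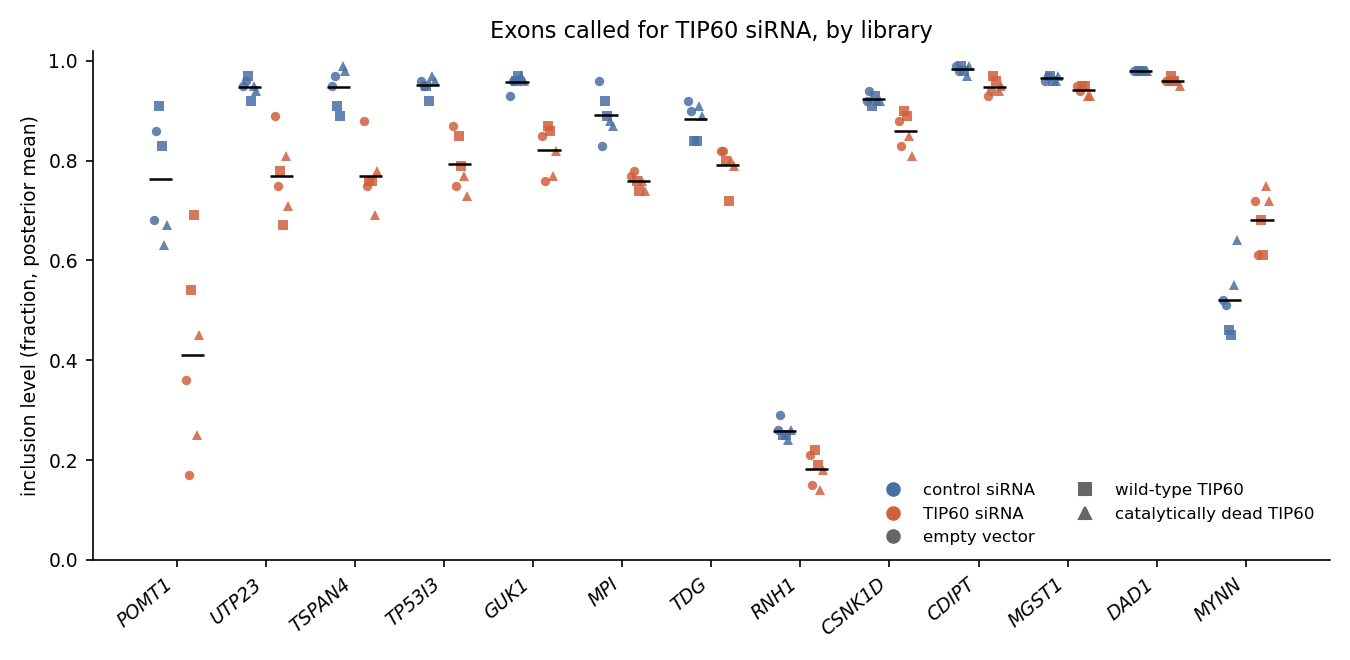
Inclusion level (y axis, fraction) of the 13 called members in each of the 12 libraries; colour gives the siRNA, shape the construct, and black lines the mean of 6 libraries. In 10 of the 13 the 6 libraries of TIP60 siRNA do not overlap the 6 of control siRNA; POMT1, CDIPT and MYNN are the exceptions.

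Of all 872 tested members, 19 had all 6 TIP60 siRNA libraries below all 6 control libraries (2.6% of all tested events did) and 2 had them all above (0.445%). Those above were API5, an inhibitor of apoptosis, at 0.01 to 0.02 against 0.03 to 0.09, and VKORC1L1, a vitamin K epoxide reductase, at 0.86 to 0.9 against 0.92 to 0.96. Neither passed the adjusted test (limma adjusted p of 0.17 and 0.0672, with the block 0.0637 and 0.0622). Of the 12 called members with an annotated coding transcript, 7 were next-to-last exons, against 45.1% of the tested members. This description was chosen after the values were seen and has no test.

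A lower inclusion level can come with more skipped transcripts, fewer included ones, or both. Reads of each form were therefore expressed in RPM. In bulk cultures fewer cells with a transcript and less of it per cell cannot be told apart. The mean level of the skipped form was higher under TIP60 siRNA in 12 of the 13 called members, with ratios of means up to 18.3, and it was lower for MYNN at 0.706. The included form was lower in 7 of the 13.

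In GUK1 the skipped form went from 9.91 ± 5.59 to 61.2 ± 20.5 RPM (mean ± SD over 6 libraries) and was higher in 6 of 6 pairs, beside 556 ± 84.8 and 685 ± 187 for the included form. In ITGA6, the integrin alpha 6 chain, it went from 1.76 ± 1.54 to 21 ± 20.9, also in 6 of 6 pairs. In MGST1 it went from 25 ± 4.01 to 42.2 ± 9.99, with 1547 ± 312 and 1510 ± 381 for the included form. The ratio of the included form's means was 1.23 in GUK1, 1.43 in ITGA6 and 0.976 in MGST1. At the depth of these libraries 1.76 RPM stands for few reads, so the skipped level of ITGA6 under control siRNA is imprecise.

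In TDG, CSNK1D and TSPAN4 the included form had the lower mean under TIP60 siRNA. In TDG the included form went from 52.5 ± 22.9 to 26.2 ± 10.4 RPM, while the skipped form, with the early stop, was at 2.47 ± 1.47 and 2.95 ± 1.61. In CSNK1D the included form went from 270.7 ± 115 to 153 ± 72.8 with the skipped form at 15.4 ± 7.66 and 18.6 ± 13.8. In TSPAN4 the included form went from 123 ± 24.7 to 54.3 ± 7.81 and the skipped form from 2.04 ± 1.89 to 6.16 ± 1.61. The skipped form of TDG under both siRNAs, and that of TSPAN4 under control siRNA, rest on few reads a library. Form levels were not tested singly, and form reads within an event share the library total.

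The 14 members called with the block alone had differences of 0.0183 to 0.217 in size, 12 lower and 2 higher. ITGA6 had the largest. Its exon of 130 nt, at chr2:172501772-172501901 and holding the stop codon, sets which of the alternative cytoplasmic tails the integrin carries. It was at 0.89 to 0.96 (median 0.92) under control siRNA and at 0.53 to 0.88 (median 0.73) under TIP60 siRNA, without overlap. The ITGA6 difference was -0.217 ± 0.048, with a limma adjusted p of 0.0893 without the block and 0.0137 with it.

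HPCAL1, a neuronal calcium sensor relative, was at 0.15 to 0.26 and at 0.1 to 0.14 for an untranslated exon (limma adjusted p = 0.142, block 0.00741). CCND3, the cyclin D3 of G1 phase, was at 0.9 to 0.96 and 0.86 to 0.93 (limma adjusted p = 0.266, block 0.0308). The proteasome subunit PSMA6, at 0.98 to 1 and 0.95 to 0.99, and ELOB, the elongin B of ubiquitin ligases, at 0.97 to 0.99 and 0.93 to 0.98, were lower too (block adjusted p of 0.0337 and 0.0189 in limma). So were MFF, a fission factor of mitochondria, SMIM7, RHBDD2, TPD52L1, VKORC1 and ZNF394. The 2 that rose were RNF14, a ubiquitin ligase, at 0.76 to 0.85 against 0.8 to 0.92 (block adjusted p = 0.02 in limma), and an exon of 128 nt in C8orf59. Removal of the RNF14 exon gives an early stop in the annotated transcripts.

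Some of the largest averaged differences did not pass. PRMT2, an arginine methyltransferase, was at 0.68 to 0.92 and at 0.32 to 0.7 (median 0.845 and 0.46), a difference of -0.317 ± 0.078 (limma adjusted p = 0.124, block 0.0503). MRPL33, of the large mitochondrial ribosomal subunit, was at 0.56 to 0.83 and at 0.41 to 0.6, and ACSF3, a mitochondrial acyl-CoA synthetase, at 0.74 to 0.92 and at 0.53 to 0.75. Their differences were -0.22 ± 0.0621 and -0.212 ± 0.0546 (limma adjusted p of 0.172 and 0.139, with the block 0.0622 and 0.107). The kinase MOK was at 0.29 to 0.44 and 0.42 to 0.54 (0.12 ± 0.0279, limma adjusted p = 0.1, block 0.0622). The difference had the same sign in 6 of 6 pairs of line and number in PRMT2, MRPL33, ACSF3 and MOK, and the ranges of the siRNAs overlapped in each of the 4.

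C8orf59 shows what the block does. Its untranslated exon of 128 nt was at 0.37, 0.34 and 0.31 in the control libraries numbered 1 and at 0.86, 0.77 and 0.74 in those numbered 2. With TIP60 siRNA it was at 0.52, 0.49 and 0.47, and at 0.92, 0.86 and 0.92. The sets were farther apart than the siRNAs, and the averaged difference of 0.132 ± 0.163 had a limma adjusted p of 0.952 without the block and 0.0142 with it. An overlapping C8orf59 exon of 125 nt was a separate tested member and was not called. That exon differed by 0.152 ± 0.141 (limma adjusted p = 0.846, block 0.107).

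**Figure D3:**
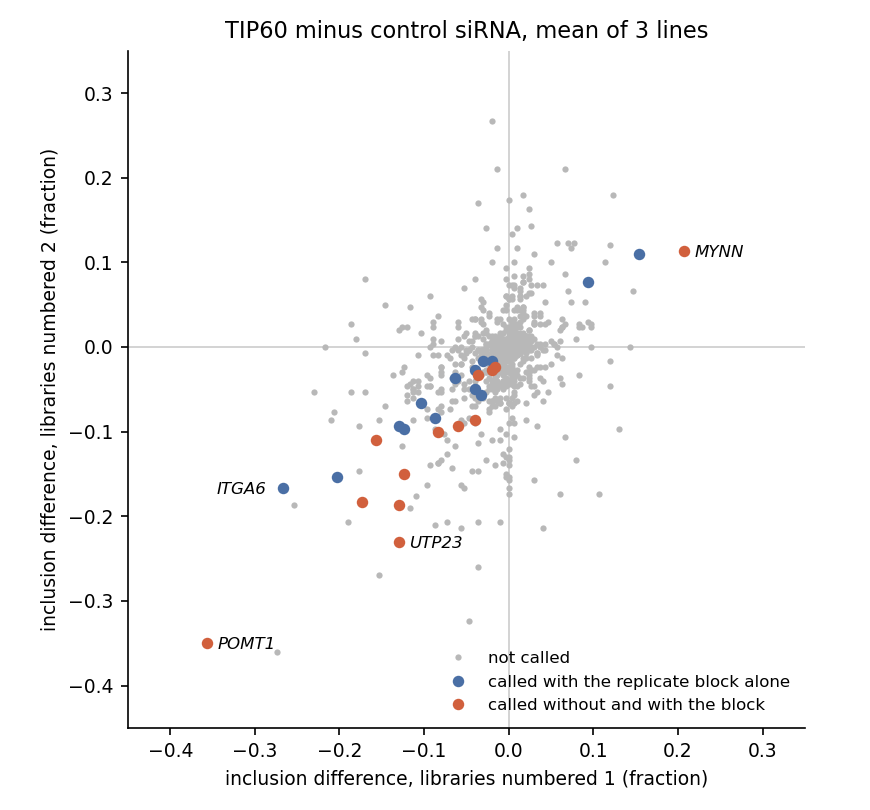
Inclusion difference between TIP60 and control siRNA (fraction, mean of 3 lines) in libraries numbered 1 (x axis) and numbered 2 (y axis) for the 872 tested members. The difference was negative in both sets for 319 members and positive in both for 183. Averaged over both sets, 62.2% of tested members and 64.2% of all tested events were lower. The coloured members were chosen by a fit on both sets, so their place along the diagonal is part of their choice.

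Fitted alone, the libraries numbered 1 called 7 members, of which 1 was among the 13 (0.742% of all tested events were called), and those numbered 2 called 0. These fits were added after the data were seen, use 6 libraries each and kept the sign of all 13.

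The next question was whether the siRNA difference was seen within each construct. None of the 872 members was called in empty-vector, wild-type or catalytically dead TIP60 cells in limma, against 0.0371%, 0% and 0.0371% of all tested events. At an unadjusted p of 0.05, 49, 31 and 44 members passed, against 6.49%, 4.3% and 6.72% of all events. With the block these were 88, 67 and 90, against 11.9%, 7.9% and 12.1%. After adjustment the block called 0, 0 and 1 member, against 0.148%, 0.148% and 0.371%. That member was TP53I3 in cells with catalytically dead TIP60, with a difference of -0.215 ± 0.0386 and a limma adjusted p of 0.219 without the block and 0.047 with it.

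The members of smallest p in empty-vector cells were CDIPT (-0.05 ± 0.00983), POMT1 (-0.505 ± 0.101), GUK1 (-0.14 ± 0.0292), SH3GLB1 (-0.095 ± 0.0202) and TMUB2 (-0.21 ± 0.045). SH3GLB1 is a membrane-curving protein of autophagy and apoptosis, and its exon went from a mean of 0.98 to 0.885. With wild-type TIP60 they were ARHGAP8 (-0.175 ± 0.0323), MPI (-0.155 ± 0.0381), MYNN (0.19 ± 0.0463), UTP23 (-0.22 ± 0.0576) and RAD17 (-0.16 ± 0.0423), a clamp loader of the DNA damage checkpoint. With catalytically dead TIP60 they were MGST1 (-0.035 ± 0.00594), GUK1 (-0.17 ± 0.0292), TSPAN4 (-0.25 ± 0.044), TP53I3 and DAD1 (-0.025 ± 0.00489). Adjusted p-values of these members in limma began at 0.236, 0.37 and 0.219 in the 3 lines.

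Single libraries were also compared by their separation. TIP60 siRNA libraries lay at least 0.1 below both control libraries in 15, 15 and 17 members of the 3 lines in the order above (2.6%, 2.19% and 3.41% of all tested events), and at least 0.1 above in 2, 2 and 3 (0.891%, 0.334% and 0.705%). With 2 libraries against 2, an exact test cannot pass the threshold.

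The resistant constructs ask whether wild-type TIP60 or its catalytically dead form changes the response to the siRNA. The difference between siRNA effects was called for 0 members in each of the 3 pairings of lines, as for all tested events (0%), with limma and also with the block. At an unadjusted p of 0.05, 12 members differed between wild-type and empty-vector cells, 10 between catalytically dead and empty-vector cells and 8 between the resistant forms, against 1.63%, 1.34% and 1.19% of all events. With the block these were 26, 26 and 22, against 3.56%, 2.89% and 2.93%. A model of isoform-specific read ratios called 0, 1 and 1. The share of all tested events called by that model is not given here, so these counts have no background beside them. The siRNA effect on GUK1 was -0.14, -0.1 and -0.17 in the 3 lines and on MPI -0.12, -0.155 and -0.125. On POMT1 it was -0.505, -0.255 and -0.3.

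TRMU modifies mitochondrial tRNA. Its exon of 83 nt went from 0.905 to 0.685 in empty-vector cells, from 0.84 to 0.855 with wild-type TIP60 and from 0.905 to 0.68 with the catalytically dead form (means of 2 libraries). The difference of the last pair of effects was -0.24 ± 0.0679, with an unadjusted p of 0.00956 and a limma adjusted p of 1. TMUB2, a ubiquitin-like membrane protein, had effects of -0.21, 0.05 and 0.005, and the difference between wild-type and empty-vector cells was 0.26 ± 0.0637 (limma adjusted p = 1). ARHGAP8 had 0.025, -0.175 and 0.03. AGPAT4, an acyltransferase of phosphatidic acid synthesis, had -0.12, 0.075 and 0.02 on as few as 12 reads. None of these differences passed.

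Averaged over the siRNAs, no member was called between wild-type TIP60 and empty vector, between the catalytically dead form and empty vector, or between the resistant forms, as for all tested events (0% in each). At an unadjusted p of 0.05, 20, 16 and 17 members passed (2.15%, 1.74% and 2.12% of all events). With the block these were 48, 51 and 44 (5.42%, 4.79% and 4.64%). The read ratio model called 0, 1 and 1 after adjustment, again with no share of all tested events beside these counts. SDR39U1, an oxidoreductase, was at 0.73 and 0.865 in empty-vector cells under control and TIP60 siRNA and at 0.895 and 0.935 with wild-type TIP60, a construct difference of 0.117 ± 0.0266 (unadjusted p = 0.00307, limma adjusted p = 1). RAD17 was at 0.79 and 0.64 with empty vector and at 0.855 and 0.85 with the catalytically dead form, a difference of 0.138 ± 0.0299 (unadjusted p = 0.00248, limma adjusted p = 1).

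Members in genes of 8 lists were counted for the averaged siRNA comparison. Of 18 tested members in 14 apoptosis and p53 target genes, 1 was called (TP53I3), and 2 were called with the block. Among all tested events 2.12% were called, and 4.16% with the block. Whether the list differs from these shares was not tested. Of the 18, 3 were lower and 0 higher at an unadjusted p of 0.05, with a median difference of -0.0125. None of 3 members in SR proteins, 6 in hnRNPs and other splicing regulators, 5 in RNA decay factors or 7 in DNA damage response genes was called or passed an unadjusted p of 0.05. The DNA damage response list holds neither TDG, called above, nor RAD17, which was lower by the averaged comparison at an unadjusted p of 0.00355 (-0.105 ± 0.0244, limma adjusted p = 0.1). The SR-related TRA2B exon of 134 nt was at 0.94 to 0.98 in both siRNAs. RNPS1, of the exon junction complex, was at 0.75 to 0.9 and at 0.52 to 0.83, a difference of -0.12 ± 0.0728 (limma adjusted p = 0.655).

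SF1, the branch point binding protein, was at 0.28 to 0.52 and at 0.22 to 0.42, lower in 6 of 6 pairs (limma adjusted p = 0.584, block 0.051). Of 3 chromatin members, JADE2, a histone acetyltransferase scaffold, was at 0.95 to 0.99 and at 0.89 to 0.96 (unadjusted p = 0.0286, limma adjusted p = 0.299). Of 3 cell cycle members, CCND3 passed with the block. Of 4 members in actin, adhesion and epithelial-mesenchymal splicing genes, 3 were lower at an unadjusted p of 0.05: ITGA6, the adhesion receptor MPZL1 and the tropomyosin TPM3. MPZL1 was at 0.97 to 0.99 and at 0.78 to 0.92, and TPM3 at 0.03 to 0.04 and at 0 to 0.02, both without overlap (limma adjusted p of 0.0546 and 0.0672, with the block 0.0514 and 0.0503). The lists are short, and all 2695 tested events had 9.87% lower and 2.56% higher at that unadjusted p.

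Event reads, the reads that fit at least 1 isoform, were compared for all 1742 listed members on the scale log2(RPM + 0.5). They cover the exons of the event and are no gene count. TIP60 siRNA averaged over the lines changed 13 members (0.741% of all 4992 events were called), 8 lower and 5 higher, where 0.401% and 0.341% of all events were called. With the block 292 were called, 183 lower and 109 higher, against 16.8% of all events. At an unadjusted p of 0.05, 146 were lower and 70 higher, against 7.43% and 3.53%. With the block these were 336 and 226, against 20.1% and 11.9%. All 13 were called with the block. Without 1 library and without the block 0 to 3 members were called, the most without the first empty-vector control library. With the block the range was 140 to 408, lowest without the second wild-type TIP60 siRNA library and highest without the second empty-vector TIP60 siRNA library.

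TP53I3 rose. Its event had 779 and 636 RPM under control siRNA and 3128 and 2314 under TIP60 siRNA in empty-vector cells. With wild-type TIP60 it had 415 and 626 against 992 and 1336, and with the catalytically dead form 755 and 882 against 2397 and 3460. The groups did not overlap, and the difference was 1.64 ± 0.19 (log2, SE; limma adjusted p = 0.0145, block 0.0003). Both forms were higher in 6 of 6 pairs: the included form went from 509 ± 153 to 1525 ± 690 and the skipped form from 10.1 ± 4.69 to 184.9 ± 136. Of the 13 members called for inclusion, 1 (TP53I3) was also called for event reads, and 4 were with the block: TP53I3, TDG, CSNK1D and TSPAN4.

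Of the members that fell, BDNF, a neurotrophin, had 86.1, 72.3, 47.4, 93.7, 26.9 and 40.2 RPM in the control libraries of empty-vector, wild-type and catalytically dead cells, and 11.1, 5.31, 9.14, 8.01, 10.5 and 12.5 under TIP60 siRNA. It fell by 2.55 ± 0.34 on the log2 scale (limma adjusted p = 0.0251), with too few isoform-specific reads for an inclusion test. DPY19L3, a C-mannosyltransferase, had 221 to 261 RPM under control siRNA and 73.5 to 110 under TIP60 siRNA, a difference of -1.39 ± 0.19 (log2; limma adjusted p = 0.0252). No read in any of the 12 libraries was specific to the form with the DPY19L3 exon, so its change is one of the neighbouring exons.

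The other called members, named after their values were seen, fell in SRPX (-1.54), TNFAIP8 (-1.19), the transcription factor NFIB (-1.06 and -1.05 for a pair of events with the same exon) and the septin SEPT10 (-1.01 for each of a pair of events). They rose in the caveolin CAV2 (0.86), the complement regulator CD55 (1.44), the growth factor AREG (1.68) and the myeloid receptor TREM1 (1.86), all log2. Between constructs no member was called for event reads (0% of all events in each of the 3 comparisons), also with the block. At an unadjusted p of 0.05, 19 members differed between wild-type TIP60 and empty vector, 12 between the catalytically dead form and empty vector and 24 between the resistant forms, against 0.962%, 0.361% and 1.18% of all events. With the block these were 128, 63 and 113, against 7.57%, 3.71% and 6.81%.

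At the edges of the rule the shortest members were 52 nt long, 15 listed and 3 tested (ABHD10, DNAJC19 and TEX264), with 16 listed and 7 tested exons of 50 nt just outside. At the upper edge 1 listed member of 250 nt was not tested, and the 1 exon of 251 nt, in BCAR1, was tested. The read minimum left 33 tested members at exactly 10 reads in their lowest library and 44 listed members out at 9. Among tested members 38 shared their middle exon with another and 52 lay on alternate or unplaced contigs.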

How the data were processed

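RNA from 12 MCF10A libraries was extracted with TRIzol and prepared with a stranded mRNA kit, per the labels' protocols. The aligner was STAR and the build hg38 (GRCh38), per the submitters' processing notes, with versions not given in the sources used here. As inclusion level the authors deposited a fraction, which per the file headers is a MISO posterior mean, rounded to 2 decimals, with its 95% interval. The deposited tables also hold, per event, the numbers of reads in each class (fitting only 1 isoform, both or neither); these were used to set depth, and reads fitting only 1 isoform are the isoform-specific ones.

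Tests of inclusion used limma 3.58.1 (R 4.3.3): 1 factor of 6 groups, empirical Bayes with a variance trend on mean log2 isoform-specific reads, robust, two-sided, Benjamini-Hochberg over all 2695 events with at least 10 isoform-specific reads in every library. Event reads were taken per 1000000 reads fitting an isoform, with a pseudocount of 0.5, over all 4992 events. There were 10 inclusion comparisons and 4 of event reads. On data simulated for the averaged siRNA comparison over 2695 events, the test called 56% of 100 shifts of 0.1 and 89% of 100 shifts of 0.3. The simulated noise was normal, independent between libraries and not bounded at 0 and 1, with no numbered sets. The measured data hold numbered sets and bounded levels, so these shares may not hold for them. The depth is 1277953 to 2280488 event reads a library, and the median tested member had 33 isoform-specific reads in its lowest library.

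Libraries with the same number deviated together from their group means in each of 15 pairs of groups (r of 0.706 to 0.779 for inclusion and 0.583 to 0.896 for log2 event reads), so the numbers pair the libraries and values from the fit with this block are printed where a call changes. Genes, reading frames and sequences come from GENCODE 29. A stop was early when over 50 nt upstream of the last junction, in complete coding transcripts, a restriction made after first results. Members and gene lists were chosen with earlier results of these data known. The rule for named members took the largest differences at the smallest p-values in the averaged siRNA comparison, the 5 or 3 of smallest p in the others, every called member, the 3 of smallest p for event reads and those of smallest p in each list. No intron sequence was used here. An exon that the rule named is not reported singly here and remains in the counts.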

Additional observations from a re-analysis of the deposited data

How the results depend on the processing

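For the averaged siRNA comparison of inclusion, 13 members were called. The number was 13 with at least 20 reads (of 628 tested) and on primary chromosomes, 7 on log2 odds, 7 with the read ratio, 5 with no read minimum (of 1742) and 27 with the replicate block. These are not always the same members. Of the 13, 11 were tested at 20 reads and stayed called. On log2 odds 6 of the 13 stayed called, with no read minimum 5, and with the read ratio 3. TP53I3 and DAD1 were among those lost with the read ratio. It was 7 and 0 in libraries numbered 1 and 2 alone, 0 to 13 without 1 library, and 6 to 34 without 1 library with the block (fits of numbered sets, and of the block without a library, were chosen after seeing the data). Within the catalytically dead line the 0 calls became 1 with the replicate block, 2 with the read ratio and 0 to 4 without 1 library. The read ratio called 1 member where the other fits had 0 for the siRNA effects of the catalytically dead line against either other line and for both constructs compared with it. For event reads the 13 calls (0.741% of all events were called) became 292 with the replicate block (16.8%). They became 26 with at least 10 event reads, and 225 and 252 in libraries numbered 1 and 2 alone. Without 1 library the number was 0 to 3, and with the block 140 to 408. Median scaling, which shifts libraries by -0.25 to 0.14 (log2), gave 12. Shares of all events are given, here or in the results, for the main and blocked fits and for inclusion in the numbered sets. Counts under the other settings have no such share beside them and are no result about the members. The block moved no other number of adjusted calls by over 1.5 times, but it raised the members at an unadjusted p of 0.05 by more than that in every comparison, from 92 to 158 for averaged inclusion and otherwise as printed in the results. No named difference changed sign under any of these settings. Where a count moved, the cause was not tested. The coarse rounding of inclusion and the 12 to 45 reads behind POMT1 limit single values, and 2 libraries a group limit every comparison within a line.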
